A study of Mus musculus with 4 samples.

Results

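The transcripts described here encode subunits of the Sin3, NuRD, CoREST and NCoR corepressor complexes and of the polycomb complexes, in heart ventricles of mouse embryos that lacked the histone deacetylase HDAC2 (KO) and of their wild-type littermates (WT). The list held 36 genes, and its members were all probe sets whose annotated symbol, old or current, was 1 of these genes and no other. Of the 36, 34 had at least 1 probe set of their own, 100 probe sets in all among the 45037 on the array that were not controls. Ncor1, the scaffold of the NCoR complex, was named by no probe set in the annotation used and was not analysed here, and Sap18 shared each of its 5 probe sets with a second gene. A probe set entered the test when both arrays of either genotype called it Present, which held for 59 member probe sets of 30 genes and for 19065 probe sets over the whole array. Brms1, Tbl1xr1, Ring1 and Cbx7 had no probe set that met this rule.

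In all, 4 arrays of the Affymetrix MOE430v2 design were hybridised, 2 KO and 2 WT. All embryos were at embryonic day 17.5 and came from a C57BL/6 X SV129 background. Each KO array took ventricular RNA pooled from 3 animals, and each WT array took RNA pooled from 2. The labels do not give the sex of the embryos, the kind of Hdac2 allele, or which pools came from the same litter, so the p-values measure only the spread between these pools, part of which may be technical.

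HDAC2 and its paralogue HDAC1 are recruited to chromatin inside the Sin3, NuRD and CoREST complexes, in which they remove acetyl groups from histones, while the NCoR complex works with the related deacetylase HDAC3. Sin3, NuRD and NCoR each join a scaffold or remodelling enzyme to histone-binding and DNA-binding subunits, and CoREST joins HDAC1 or HDAC2 to a histone demethylase. The polycomb complexes silence developmental genes by other marks: PRC2 methylates a lysine of histone H3, and PRC1 ubiquitylates histone H2A. HDAC1 and HDAC2 have overlapping roles in the growth of heart muscle in mice, and Ezh2 is needed for normal cardiac development in mice.

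The Hdac2 transcript itself was read first, because the labels of the KO samples name them wild type in 1 field and KO in another. Hdac2 probe set 1445684_s_at gave signals of 31.4 and 21 on the KO arrays, both called Absent, against 1188 and 1421 on the WT arrays, both called Present. The difference was -5.66 ± 0.21 on the log2 scale (KO minus WT ± moderated SE, limma adjusted p = 2.32e-09), and the KO titles therefore matched the Hdac2 signal. The arrays were alike in the share of probe sets called Present, 43.1% and 43.7% on KO arrays against 43.1% and 42.4% on WT arrays, and in the 2%-trimmed mean signal, 149.9 and 149.9 against 149.7 and 149.6. The 3′ over 5′ signal ratio of actin was 2.75 and 2.42 on KO arrays against 1.85 and 2.32 on WT arrays, and that of Gapdh was 1.18 and 1.01 against 0.844 and 0.949, so both ratios were higher on both KO arrays.

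Markers of some other cell types differed between the genotypes. The 10 cardiomyocyte markers were Present on all arrays, with summed signals of 104675 and 108627 in KO and 109481 and 107338 in WT. The 13 skeletal muscle markers summed to 1281 and 1278 in KO, with 4 and 5 of them Present, against 13382 and 12484 in WT, with 12 Present on each array, and 10 of the 12 tested were lower in KO at the adjusted threshold. Bone and cartilage markers summed to 239.8 and 204.7 in KO against 490.4 and 402.8 in WT (8 genes, 3 of the 5 tested lower), fibroblast markers to 15214 and 16366 against 17999 and 18217 (8 genes, 2 lower), and macrophage markers to 1332 and 1302 against 1470 and 1617 (8 genes, none past the threshold). Endothelial markers summed to 3971 and 4058 in KO against 4140 and 4092 in WT, and erythroid markers to 2646 and 2913 against 2550 and 2706 (1 of 4 tested higher). Xist, the noncoding RNA of the inactive X chromosome, read 547.9 and 793.7 in KO against 80.5 and 90.1 in WT (2.95 ± 0.19, limma adjusted p = 8.1e-07). The subunit genes are expressed in many cell types, and the part of these marker and Xist differences in the subunit signals was not tested. In such bulk tissue, fewer cells of a type, less RNA per cell and a difference in the tissue taken at dissection cannot be told apart.

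No subunit passed the test between the genotypes, and most were measured to lie within 1.5-fold of their WT level. Of the 59 member probe sets, 0 passed an adjusted p of 0.05 in limma (Benjamini-Hochberg over all 19065 tested), where 1.34% of all tested probe sets did, 0.383% higher and 0.960% lower in KO. At an unadjusted p under 0.05 there were 12 member probe sets, 20.3% of them, against 15.5% of all probe sets. Of these 12, 10 (16.9%) were higher in KO and 2 (3.39%) were lower, against 7.29% and 8.23% of all probe sets. Both KO arrays lay above both WT arrays at 23 member probe sets (39.0%, against 25.0% of all) and below them at 5 (8.47%, against 22.5%). The upward side was thus more common among the members than on the array as a whole, in differences that did not pass adjustment. The counts take probe sets of 1 gene separately, with Sin3b and Rnf2 repeated. Ing2, Rbbp4 at 1456260_at and Gatad2b at 1425075_at and 1437507_at entered the test through the KO arrays alone. Their differences were positive, 0.32, 0.26, 0.22 and 0.40, so they do not support an upward side. With Present calls required on all 4 arrays, 11 member probe sets had an unadjusted p under 0.05 in limma. The count of 12 depended on single arrays: it rose without the first KO array and fell without any 1 of the other arrays.

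With each gene taken at its brightest tested probe set, 22 of the 30 subunits had a positive KO minus WT difference (73.3%, against 55.7% of all genes tested) and 8 a negative one. Their median difference was 0.089 on the log2 scale, against 0.035 over all 10184 genes tested, and the differences ran between -0.48 and 0.43. Without the first KO array the median was 0.047, and with Present calls required on all 4 arrays it was 0.074. Ing2 and Gatad2b, among the 22, entered the test through the KO arrays alone. For 24 of the 30 (80%) the 95% moderated interval lay inside a 1.5-fold change in either direction, as it did for 5741 of all tested genes (56.4%). The exceptions were Ing2, Gatad2b, Ezh1, Ezh2, Eed and Rnf2, whose intervals reached past 1.5-fold on 1 side. The gap between the 2 KO arrays had a median of 0.19 over the 30 subunits, wider than the median absolute difference between genotypes of 0.13, and the gap between the 2 WT arrays had a median of 0.075. For 10 of the 30 subunits the difference between genotypes was larger than both gaps. The same count was not made over all genes tested, so it does not set the subunits apart from other genes.

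**Figure D1:**
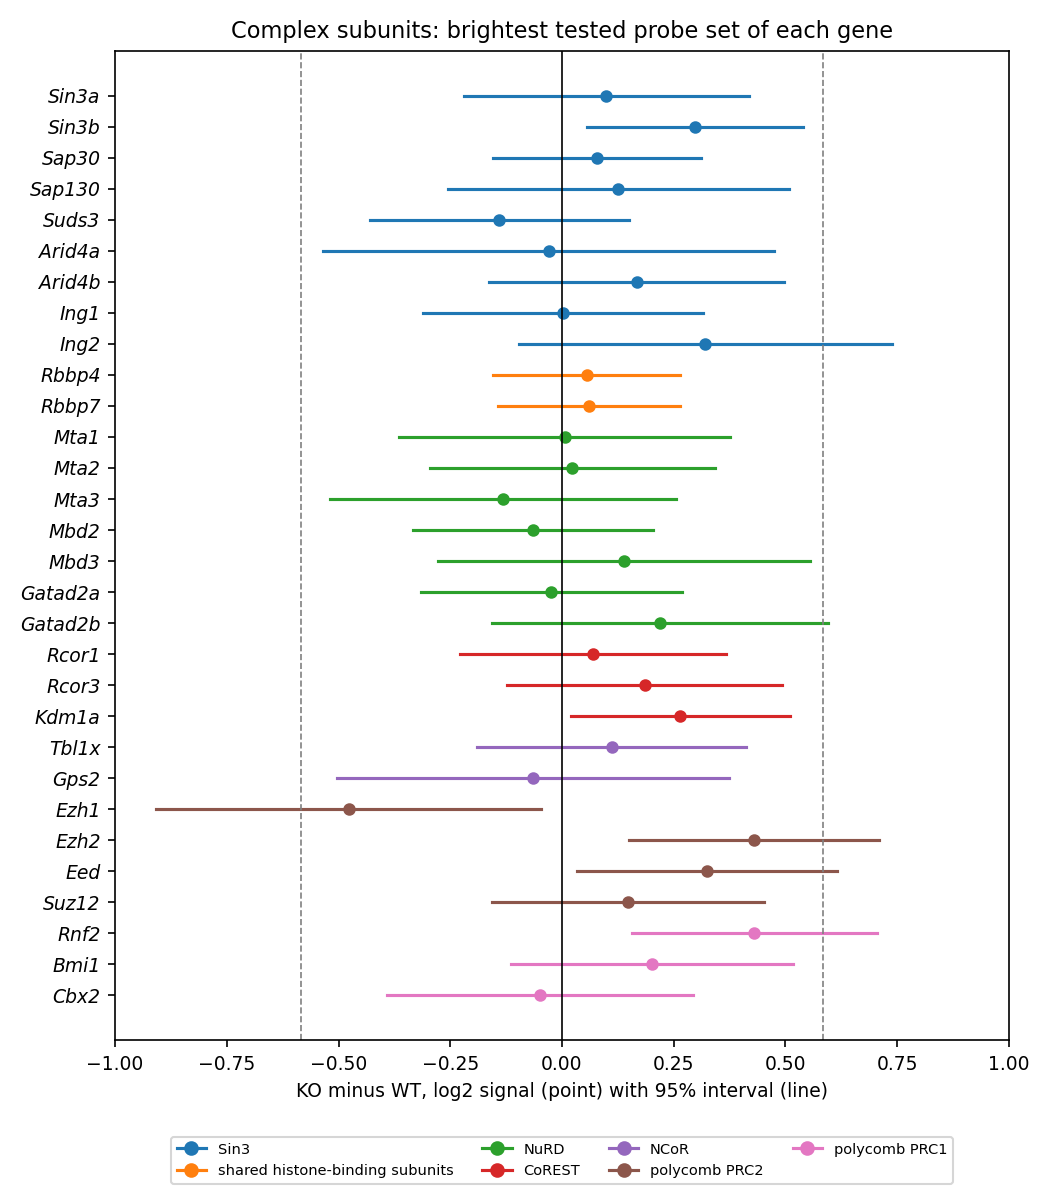
The difference in log2 signal, KO minus WT, is plotted for the brightest tested probe set of each of 30 subunits (points) with its 95% moderated interval (lines), coloured by complex, and dashed lines mark a 1.5-fold change. Most intervals span 0 and stay inside the dashed lines, with the points of Ezh2 and Rnf2 farthest to the right and that of Ezh1 farthest to the left.

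At the brightest probe sets, the widest differences were those of the polycomb subunits Ezh1, Ezh2 and Rnf2. PRC2 is built around a methyltransferase, Ezh2 or its relative Ezh1, with Eed, which reads the methylated histone, and Suz12, which holds the complex together. Of its 4 tested subunits, 3 had a positive difference and 1 a negative one, with a median of 0.24 at the brightest probe sets. Ezh2, the methyltransferase most used in dividing and embryonic cells, gave signals of 581 and 621.3 in KO and 426.5 and 466.8 in WT at its 1 probe set, 1416544_at. Both KO arrays lay above both WT arrays. The means were 601 ± 28.5 and 447 ± 28.5 (SD, n = 2 each), a 1.35-fold difference of 0.43 ± 0.13 on the log2 scale with a 95% interval of 0.15 to 0.71. In limma this gave an unadjusted p of 0.00552 and an adjusted p of 0.135, which did not pass.

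Eed read 451.4 and 491.9 in KO against 371.1 and 381.5 in WT at 1448653_at, its 1 tested probe set. The groups did not overlap, and the difference was 0.32 ± 0.14 (limma adjusted p = 0.274). Suz12 had 4 tested probe sets, which gave positive differences of unequal size. At the brightest, 1420021_s_at, its signals were 569.7 and 736 in KO and 592.9 and 576.4 in WT. There the lower KO array fell below both WT arrays, and the difference was 0.15 ± 0.14 (limma adjusted p = 0.651). At 1427253_s_at the Suz12 signals were 382.2 and 430.6 in KO and 315.6 and 325 in WT, without overlap, a difference of 0.34 ± 0.14 (limma adjusted p = 0.275). The remaining Suz12 probe sets, 1452364_at and 1449661_at, gave 0.40 ± 0.19 and 0.25 ± 0.26. One array, the second KO array, carried much of the Suz12 difference at the brightest probe set: without it the difference was -0.037.

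Ezh1, the methyltransferase more abundant in resting and adult tissues, had the sole negative difference among the PRC2 subunits. At 1449023_a_at it read 136.7 and 106 in KO against 156.2 and 179.8 in WT, and both KO arrays lay below both WT arrays. The difference was -0.48 ± 0.20, a fold of 0.718, with a 95% interval of -0.91 to -0.047 (limma unadjusted p = 0.0321, adjusted p = 0.276). The difference was -0.29 without the second KO array and -0.66 without the first. Its other tested probe set, 1418290_a_at, read 61.8 and 58.2 in KO and 49.8 and 82.1 in WT. There the groups overlapped and the difference was -0.092 ± 0.29. Its 95% interval of -0.71 to 0.53 held both 0 and the -0.48 of the first probe set. Whether the opposite signs of Ezh2 and Ezh1 differ from each other was not tested.

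PRC1 carries the ubiquitin ligase Rnf2 (also called Ring1B) or Ring1, a partner such as Bmi1, and a Cbx protein that binds the PRC2 mark. Rnf2 had the smallest p of the members. Its signals at 1424873_at were 841.3 and 1018 in KO and 673.2 and 700.8 in WT, and the groups did not overlap. The difference was 0.43 ± 0.13, or 1.35-fold, with an interval of 0.16 to 0.70 (limma unadjusted p = 0.00468, adjusted p = 0.126). At its second tested probe set, 1451519_at, Rnf2 read 412.8 and 519.3 in KO against 343 and 358.9 in WT, again without overlap, a difference of 0.40 ± 0.15 (limma adjusted p = 0.226). Without the first KO array, the lower of the KO signals, the Rnf2 difference at 1424873_at was 0.57 and passed, with a limma adjusted p of 0.0292. Without the second KO array it was 0.29 and did not pass (limma adjusted p = 0.382).

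The other PRC1 subunits were closer to WT. Bmi1 read 427.5 and 538.3 in KO and 406.8 and 427.6 in WT at 1417493_at, where the lower KO array fell just below the higher WT array, a difference of 0.20 ± 0.15. That difference was 0.036 without the second KO array and 0.37 without the first. Cbx2 differed by -0.048 ± 0.16. Ring1, the paralogue of Rnf2, was called Absent on all arrays, with signals of 170.9 and 137.4 in KO and 140 and 176.7 in WT. Cbx7 was likewise Absent on all arrays at its brightest probe set, 1433557_at, with 45.9 and 31.6 in KO and 48.7 and 35.4 in WT. An Absent call on this array means that the signal was not set apart from mismatch background, not that the transcript was missing.

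**Figure D2:**
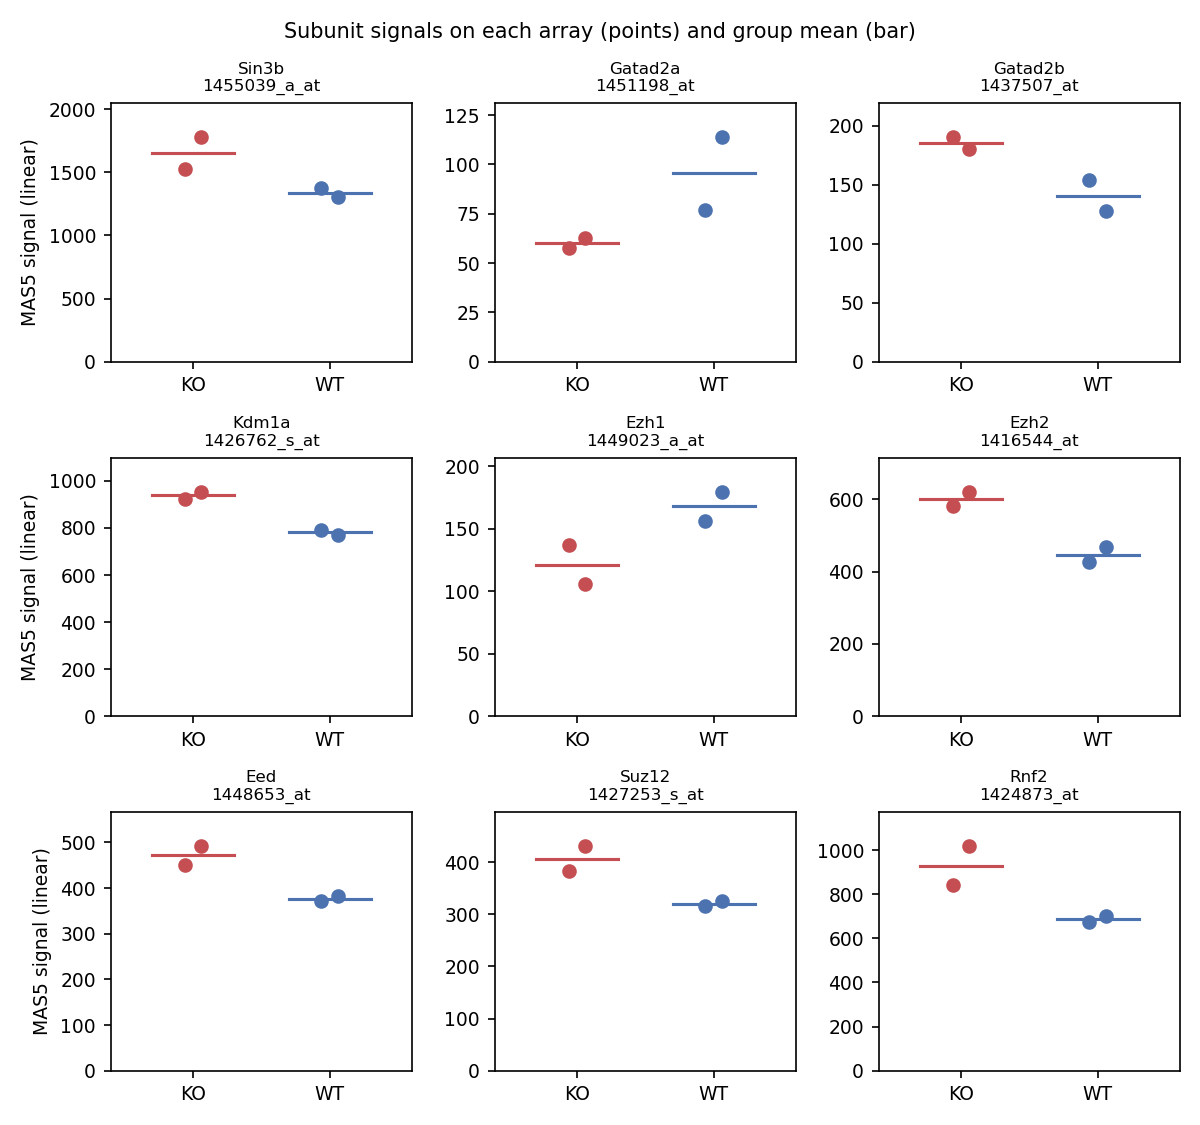
The MAS5 signal on a linear axis starting at 0 is shown for the 9 subunits with an unadjusted p under 0.05, at the probe set with the smallest p, as points for each array (2 KO, left, and 2 WT, right) and a bar at the group mean. In every panel the KO and WT points do not overlap, and Gatad2a and Ezh1 are the panels in which KO lies below WT.

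The promoter sequences of 3 polycomb genes are printed to show the regions upstream of the transcripts described above. These are Rnf2 (smallest p), Ezh1 (widest negative difference at a brightest probe set) and Suz12 (sole motif match among the 30 member genes searched). Each is the stretch of 250 bases that ends just before the annotated start of the gene, on the strand of the gene and 5′ to 3′, from RefSeq's table on assembly GRCm38.p6, and capitals mark the motif. The motif was the binding site of E2F factors, which control cell-cycle genes, written as TTTCCCGC, TTTCGCGC, TTTGCCGC or TTTGGCGC and searched on both strands.
Rnf2, chr1:151500992-151501241, minus strand: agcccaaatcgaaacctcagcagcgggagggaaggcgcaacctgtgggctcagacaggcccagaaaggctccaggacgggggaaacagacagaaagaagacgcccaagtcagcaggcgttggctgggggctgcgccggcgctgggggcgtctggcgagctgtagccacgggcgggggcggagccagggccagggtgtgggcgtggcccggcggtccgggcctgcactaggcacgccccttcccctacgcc
Suz12, chr11:79992856-79993105, plus strand: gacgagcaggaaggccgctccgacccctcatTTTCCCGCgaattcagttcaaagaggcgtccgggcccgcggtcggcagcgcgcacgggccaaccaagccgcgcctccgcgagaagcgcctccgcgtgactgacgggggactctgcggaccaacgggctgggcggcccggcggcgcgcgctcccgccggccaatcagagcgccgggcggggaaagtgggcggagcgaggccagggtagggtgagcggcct
Ezh1, chr11:101226464-101226713, minus strand: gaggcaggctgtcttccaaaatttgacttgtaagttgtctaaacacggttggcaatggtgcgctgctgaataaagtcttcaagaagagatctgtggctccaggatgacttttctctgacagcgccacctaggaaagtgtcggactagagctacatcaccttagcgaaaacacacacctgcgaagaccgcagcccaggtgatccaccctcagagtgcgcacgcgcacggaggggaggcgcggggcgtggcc
The match in Suz12, TTTCCCGC, began 219 bases before the start. Of 30 member genes with a window, 1 (3.33%) held a match, or 1 of their 38 windows (2.63%), against 1.86% of all 32851 windows in the table. These are not the 30 tested subunits: Ncor1, Sap18, Ring1, Tbl1xr1 and Cbx7 had a window but were not tested. The 3 printed windows lay outside annotated genes. Other member windows did not, among them the sole windows of Ezh2, Kdm1a, Rcor3, Mta1 and Gps2. Their lack of a match may therefore not describe the promoter. The GC content was 70.4% for Rnf2, 73.6% for Suz12 and 55.2% for Ezh1, against a median of 52.4% over all windows. A match is a stretch of letters and not a bound site, and a window with no match says nothing of the factor.

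The 3 CoREST genes of the member list had positive differences at their brightest probe sets. Other CoREST subunits, outside the list, had differences of both signs, given below. CoREST joins a scaffold, Rcor1 or its paralogue Rcor3, to Kdm1a, the demethylase also called LSD1, and the complex works with HDAC1 or HDAC2. The 3 genes had a median difference of 0.19 at their brightest probe sets. Kdm1a read 924.6 and 954.8 in KO against 793.2 and 770.9 in WT at 1426762_s_at. The KO arrays lay above the WT arrays by more than either pair differed within itself, and the difference was 0.26 ± 0.11 (limma unadjusted p = 0.0364, adjusted p = 0.289). Its other probe set, 1426761_at, gave 0.30 ± 0.16. Rcor1 had 3 tested probe sets with differences between 0.0092 and 0.15, none larger than its SE, and Rcor3 had 3 of mixed sign, 0.19 ± 0.14 at the brightest and -0.13 ± 0.20 and -0.26 ± 0.23 at the others.

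In the Sin3 complex, the scaffolds Sin3a and Sin3b hold the deacetylases, and Sap30, Sap130, Suds3, Arid4a, Arid4b, Ing1, Ing2, Brms1 and Sap18 bind to them. Of the 9 tested genes, 7 had a positive difference, with a median of 0.099 and a range of -0.14 to 0.32. Sin3b was the sole gene of the complex with an unadjusted p under 0.05. At its brightest probe set, 1455039_a_at, it read 1525 and 1780 in KO against 1376 and 1304 in WT, without overlap, a difference of 0.30 ± 0.11 (limma unadjusted p = 0.0192, adjusted p = 0.23), which was 0.19 without the second KO array. Sin3b gave like differences at 1424355_a_at, with 953.2 and 1029 in KO and 864.4 and 714.1 in WT (0.33 ± 0.13), and at 1434637_x_at, with 1360 and 1467 in KO and 1216 and 1150 in WT (0.26 ± 0.11). The fourth tested Sin3b probe set, 1452849_at, went the other way, with 273 and 220.7 in KO and 245.3 and 291.3 in WT, a difference of -0.12 ± 0.17 with overlapping groups. Probe sets of 1 gene can target different transcript forms, and the probe positions were not used here.

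Sin3a, the paralogue needed for early mouse development, read 384.6 and 323.6 in KO and 325.2 and 333.6 in WT at 1449343_s_at, with overlapping groups. Its difference was 0.099 ± 0.15 there and -0.088 ± 0.23 at 1419101_at. Ing2, which reads a methyl mark of active promoters, was Present on both KO arrays at 142.8 and 133.2 and Absent on both WT arrays at 113.7 and 107.2. Ing2 entered the test through its KO arrays alone, and its difference of 0.32 ± 0.19, with an interval of 0.936-fold to 1.67-fold, had an unadjusted p of 0.12 in limma. Sap30, a bridge between Sin3 and DNA-binding factors, read 1225 and 1255 in KO and 1210 and 1138 in WT (0.079 ± 0.11). Arid4b differed by 0.17 ± 0.15, Sap130 by 0.13 ± 0.18, Suds3 by -0.14 ± 0.13, Arid4a by -0.030 ± 0.23 and Ing1 by 0.0022 ± 0.15. Brms1 was not tested, with Marginal calls on 3 arrays and signals of 71.7 and 71.5 in KO and 80.3 and 65 in WT at 1426129_at.

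Rbbp4 and Rbbp7 are histone-binding proteins shared by Sin3, NuRD and PRC2. Rbbp7 read 3928 and 4393 in KO and 3950 and 4017 in WT at 1456227_x_at, and Rbbp4 read 3078 and 2778 in KO and 2826 and 2801 in WT at 1434892_x_at. The groups overlapped for both genes, and the differences of 0.061 ± 0.094 and 0.056 ± 0.097 were within the error. Rbbp7 is an X-linked gene, as is Tbl1x of the NCoR complex, and neither passed the test. The part of embryo sex in their signals was not tested.

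The NuRD subunits showed no common direction. NuRD couples histone deacetylation to chromatin remodelling, with the scaffolds Mta1, Mta2 and Mta3, the methyl-CpG proteins Mbd2 and Mbd3, and the bridging proteins Gatad2a and Gatad2b. Of the 7 genes, 4 had a positive and 3 a negative difference, and their median was 0.0065. Mbd2, which binds methylated DNA, read 737.1 and 738.7 in KO and 711.8 and 837.7 in WT at 1417165_at, with the KO values between the WT values (-0.066 ± 0.12). The Mta genes differed by 0.0065 ± 0.17 for Mta1, 0.023 ± 0.15 for Mta2 and -0.13 ± 0.18 for Mta3, and Mbd3 by 0.14 ± 0.19.

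The Gatad2a probe sets disagreed. At the brightest, 1423992_at, Gatad2a read 773.8 and 635.5 in KO and 762.1 and 666.6 in WT, a difference of -0.023 ± 0.14 with overlapping groups. At 1451198_at it read 57.7 and 62.7 in KO against 77.1 and 113.9 in WT, without overlap, a difference of -0.64 ± 0.26 (limma unadjusted p = 0.027, adjusted p = 0.259). Without the second WT array that difference was -0.36, and without the first it was -0.92. The other tested probe sets went the other way, with 0.40 ± 0.19 at 1455505_at and 0.17 ± 0.16 at 1451197_s_at, so no single direction describes Gatad2a. Its paralogue Gatad2b had positive differences at 3 of 3 tested probe sets, with 0.22 ± 0.17 at the brightest, 1425075_at, which was 0.0019 without the first KO array and 0.44 without the second. At 1437507_at it read 190.5 and 180.2 in KO against 154.2 and 127.4 in WT, where the lower WT signal was called Absent, a difference of 0.40 ± 0.18 (limma unadjusted p = 0.0463, adjusted p = 0.314). Like 1425075_at, this probe set entered the test through the KO arrays alone.

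**Figure D3:**
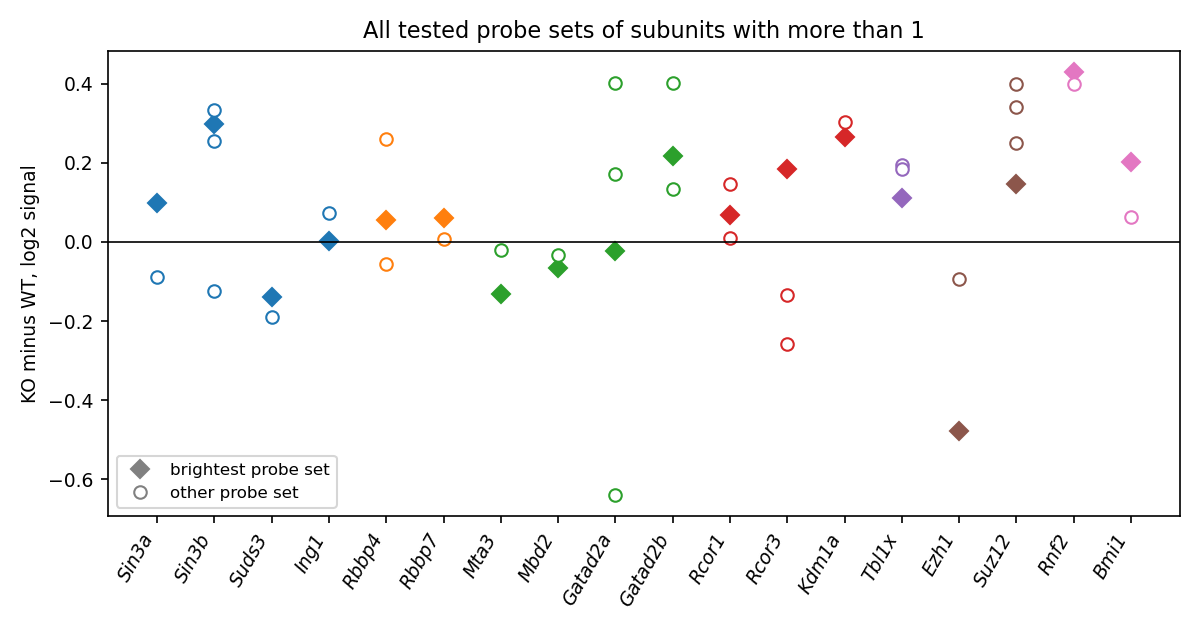
The KO minus WT difference in log2 signal is shown for every tested probe set of the 18 subunits that had more than 1, with a diamond for the brightest probe set, an open circle for the others and colours for the complexes. All points of 13 genes lie on 1 side of 0, and Sin3a, Sin3b, Rbbp4, Gatad2a and Rcor3 have points on both sides.

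Over the 18 genes with more than 1 tested probe set, 13 had differences of 1 sign and 5 had mixed signs. In the NCoR complex, Tbl1x, a WD-repeat adaptor, read 1341 and 1009 in KO and 1001 and 1158 in WT at 1455042_at, with overlapping groups and a difference of 0.11 ± 0.14. Its other probe sets gave 0.19 ± 0.14 and 0.18 ± 0.25. Gps2, a small core subunit, read 116.2 and 116.1 in KO and 109.1 and 135.4 in WT, a difference of -0.065 ± 0.20 with the KO values between the WT values. Tbl1xr1, the autosomal relative of Tbl1x, was not tested. Its brightest probe set, 1434839_s_at, read 282.9 and 289.2 in KO, called Marginal and Present, and 326.3 and 335.8 in WT, called Absent on both arrays.

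Other subunits of the same complexes, 48 genes of which 43 were on the array and 36 tested, gave 1 call at the adjusted threshold, Hdac2 itself, lower in KO. At an unadjusted p under 0.05, 4 were higher in KO (11.1%, against 8.42% of all genes tested) and 5 lower (13.9%, against 7.14%), Hdac2 included. The median difference of the 36 was -0.017. Phc1, a PRC1 subunit, had the smallest p after Hdac2, with 273.7 and 251.9 in KO against 167.7 and 178.8 in WT, without overlap. Its difference of 0.60 ± 0.16, or 1.52-fold, had a limma adjusted p of 0.097. Zmym2, found in CoREST-type complexes, read 680.9 and 736.3 in KO and 492.4 and 584 in WT (0.40 ± 0.13, limma adjusted p = 0.173). Hmg20b, found in the same complexes, went the other way, with 235.1 and 198.7 in KO and 280.1 and 292.4 in WT (-0.41 ± 0.16, limma adjusted p = 0.251). The differences of Rest and Zmym3 were also negative, -0.27 ± 0.16 and -0.27 ± 0.22. Hdac1, the paralogue that shares these complexes with Hdac2, read 689 and 590.6 in KO and 781.9 and 789.6 in WT. Both KO arrays lay below both WT arrays, and the difference of -0.30 ± 0.13 did not pass (limma adjusted p = 0.275). Chd4, the remodelling enzyme of NuRD, read 357.9 and 369.3 in KO against 495.3 and 428.7 in WT (-0.34 ± 0.14, limma adjusted p = 0.265).

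Most genes known to be repressed through these complexes did not meet the detection rule, which 10184 of the 18193 genes named on the array met. Of 25 neuronal genes repressed by the REST factor with CoREST outside the nervous system, 21 were on the array and 5 were tested. Of the 5, 0 passed the adjusted threshold in limma and 0 had an unadjusted p under 0.05, against 15.6% of all genes tested. Their median difference was -0.016. The smallest p values belonged to Syp, a synaptic vesicle protein, with 0.47 ± 0.33, and Rab3a, a vesicle GTPase, with -0.14 ± 0.11. Of 25 genes that polycomb holds silent outside the cells that use them, 23 were on the array and 5 were tested. None passed the adjusted threshold, and their median was -0.33. At an unadjusted p under 0.05 in limma there was 1 (20.0%, against 15.6% of all genes tested). The 5 genes tested from each list were those with Present calls, so the medians do not describe the genes that stayed undetected. Of the polycomb list, Eya1 and Hand1 entered through the WT arrays alone, with differences of -1.23 and -0.33, and -0.33 is also the median. That median is thus no support for a lower level in KO. Syp and L1cam of the neuronal list entered through the KO arrays alone, with 0.47 and -0.18. Cdkn1c, an imprinted inhibitor of the cell cycle, read 971.9 and 1104 in KO against 1390 and 1346 in WT. The groups did not overlap, and the difference of -0.40 ± 0.11 had an unadjusted p of 0.00331 and an adjusted p of 0.111 in limma. Eya1, a developmental regulator, read 6.8 and 31.3 in KO and 51.6 and 22.6 in WT, with overlapping groups (-1.23 ± 0.63).

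Genes of proliferating cells were read because Ezh2 is more abundant in dividing cells. Of 24 such genes, 22 were tested and 0 passed the adjusted threshold in limma. Their differences were positive for 16 (72.7%, against 55.7% of all genes tested) and negative for 6, with a median of 0.14 beside 0.035 for all genes. At an unadjusted p under 0.05, 4 were higher (18.2%, against 8.42% of all genes) and 1 lower in KO (4.55%, against 7.14%). The summed signal of the 23 on the array was 22912 and 24533 in KO against 21066 and 22135 in WT. Mcm3 and Mcm2, subunits of 1 replication helicase, had the smallest p values and opposite signs. Mcm3 read 592.9 and 701.3 in KO against 508.2 and 481.8 in WT (0.38 ± 0.13), and Mcm2 read 660.9 and 650.2 in KO against 757.3 and 966.4 in WT (-0.38 ± 0.13). The part of these genes in the Ezh2 difference was not tested.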

How the data were processed

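The authors deposited, for each of 4 single-colour arrays, a probe set signal that is an intensity on a linear scale, which per the submitters' processing notes came from MAS5, with a detection p-value and call per the file headers. No version of MAS5 is given in these sources. The signals in the deposited series table were identical. Genes were named from the platform annotation, in which 34945 probe sets name 1 gene, 932 several and 9160 are not listed, with symbols updated through the RefSeq gene table. The 4 signals of 0 were set to 0.1, a step not in the planned design. Log2 signals of the 19065 probe sets Present on both arrays of a group were fitted with limma 3.58.1 (eBayes with a variance trend, R 4.3.3) with genotype as sole factor. P-values are two-sided, adjusted by Benjamini-Hochberg over all tested, with 0.05 as threshold, and errors are moderated SEs unless named SD. The script was tested on simulated data. All 36 members are named. Values per array are given for members with an unadjusted p under 0.05 at any tested probe set, for the brightest member of each complex, and for some others picked after their values were seen. From each other list, genes past the threshold or the 2 with the smallest p are named. Hdac1, Chd4, Hmg20b, Rest, Zmym3, L1cam and Hand1 were added after their values were seen. The 13 alternatives cover scaling, offsets, the detection filter, the variance model, the replicate block and leaving out each array. The members and lists were chosen with earlier results of these data known. Precision is limited by having 2 arrays in a group.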

Additional observations from a re-analysis of the deposited data

How the results depend on the processing

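Medians, counts and differences are as in the report, log2 and KO minus WT. Hdac2 stayed lower in KO in the 12 alternatives that could test it, all but Present on all 4 arrays. Across all tested probe sets, 73 were called higher and 183 lower in KO, against 7 and 30 without the detection filter, 4 and 19 without the variance trend, 271 and 450 with the replicate block, and between 48 and 222 higher and between 110 and 428 lower when 1 array was left out, most without KO replicate 1 and fewest without KO replicate 2 (higher) or WT replicate 1 (lower). Member probe sets called were 0, except 1, Rnf2 at 1424873_at, with the replicate block (limma adjusted p = 0.0458) and without KO replicate 1 (0 to 1 over the left-out arrays). Same-numbered arrays did not deviate together (r = -0.0113), so the numbers were not taken as pairs. Member probe sets at an unadjusted p under 0.05 numbered 12, against 6 without the variance trend and 3 to 15 with 1 array left out. The median of the member genes, 0.089, was 0.058 under median centring and 0.047 to 0.10 with 1 array left out, the lowest without KO replicate 1. Over all 13 alternatives the adjusted p ran between 0.0292 and 0.471 for Rnf2, 0.0721 and 0.562 for Ezh2, 0.0669 and 0.563 for Sin3b, 0.125 and 0.627 for Ezh1, 0.181 and 0.69 for Eed and 0.231 and 0.653 for Kdm1a. Signs turned for small differences. Under quantile normalization they were 0.061 for Arid4a, -0.033 for Ing1, -0.012 for Mta1 and 0.0021 for Gps2, and under median centring -0.029 for Ing1, -0.025 for Mta1 and -0.0078 for Mta2. With 1 array left out, differences ran from -0.026 to 0.22 for Sin3a, -0.025 to 0.28 for Sap130, -0.28 to 0.22 for Arid4a, -0.17 to 0.18 for Ing1, -0.018 to 0.13 for Rbbp4, -0.02 to 0.14 for Rbbp7, -0.24 to 0.25 for Mta1, -0.11 to 0.16 for Mta2, -0.18 to 0.052 for Mbd2, -0.069 to 0.35 for Mbd3, -0.17 to 0.12 for Gatad2a, -0.093 to 0.32 for Tbl1x, -0.22 to 0.09 for Gps2, -0.037 to 0.33 for Suz12 and -0.11 to 0.013 for Cbx2. Without a turn of sign, differences moved by over 1.5 times with 1 array left out for Rnf2 at 1451519_at (0.23 to 0.57), Gatad2b at 1437507_at (0.26 to 0.54), Sin3b at 1424355_a_at (0.20 to 0.47), Sap30 (0.035 to 0.12), Suds3 (-0.19 to -0.087), Arid4b (0.07 to 0.26), Mta3 (-0.22 to -0.039) and Rcor3 (0.095 to 0.27). The brightest probe sets of Ing2 and Gatad2b, and 1437507_at, were also not Present on all 4 arrays and have no value under that filter. Fits with 1 array left out assume that the lone array varies like the other group. The cause of these shifts was not tested.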

Other observations

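Sap18, a small adaptor of the Sin3 complex, shares its 5 probe sets with Sap18b, so the signals cannot be given to either gene. At 1434646_s_at they were 1465 and 1389 in KO and 1548 and 1556 in WT, a difference of -0.12 ± 0.10 (limma adjusted p = 0.604). At 1419445_s_at they were 776.5 and 799.7 in KO and 702.9 and 711.5 in WT, a difference of 0.16 ± 0.12. Neither pair of groups overlapped, and the probe sets differed in sign. At 1419444_at the difference was -0.0054 ± 0.15 and at 1419443_at it was 0.26 ± 0.17. The remaining shared probe set was Absent on all arrays.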
